A study of Astyanax mexicanus with 8 samples.

Results

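Caspases, Bcl2 family proteins, inhibitors of apoptosis (IAPs), RIP kinases and gasdermins were followed in spheroids of liver-derived cells of the Mexican tetra Astyanax mexicanus. Genes were taken by name: every listed gene whose name begins with casp and a digit, bcl2, bax, bak, bik, bida, bmf, mcl1, xiap, birc2 to birc7, fadd, ripk, apaf1, diablo, gsdme, cflar or mlkl, upper-case names included, without birc5a and birc5b. This gave 44 of 27420 listed genes, under 38 different names. No listed name began with casp9, bak, bmf or mlkl. A row named BIRC5 in capitals fell within the rule and was kept. Of the 44, 36 had a mean of at least 1 TPM (transcripts per 1000000) over all libraries and were tested.

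The SFL line came from surface fish and the CFL line from Pachon cave fish, and both are labelled wild type. Cells were seeded at 10000, 25000, 50000 or 100000 per well in round-bottomed wells that prevent attachment, kept at 27 °C as free-growing spheroids and labelled day 28. Each line gave 1 library per density, 4 SFL and 4 CFL libraries. Only 1 line stands for each fish form and no density was repeated within a line, so the tests compare these lines and every standard deviation (SD, n = 4 densities) contains the effect of density.

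Apoptosis is carried out by caspases, proteases made as inactive precursors. Initiator caspases are activated on scaffolds, either below death receptors (Fadd with caspase 8) or after the mitochondria release cytochrome c (Apaf1 with caspase 9), and then cut the executioner caspases. Bcl2 family proteins decide whether the outer mitochondrial membrane is opened: Bax opens it, BH3-only proteins such as Bid promote this, and Bcl2, Bcl2l1 and Mcl1 prevent it. IAPs restrain caspases, Diablo (also called Smac) removes that restraint, and RIP kinases and gasdermins act in inflammatory and lytic forms of death. RNA levels of these genes do not report protein cleavage or cell death.

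TPM values are per transcript length, so levels can be compared between genes, but they keep no sequencing depth. Between 17819 and 19408 listed genes were above 0 in a library. Libraries of 50000 and 100000 cells stood apart from those of 10000 and 25000: within each line the 76 ribosomal protein genes took a larger share of TPM at the larger densities (19.4% to 21.0% against 16.3% to 16.4% in SFL, and 22.1% to 26.1% against 19.7% to 20.3% in CFL). The part of this shift in any gene's change with seeding was not tested. Of 16 hepatocyte marker rows, 7 in SFL and 3 in CFL averaged at least 1 TPM, and their summed level was 281 to 358 TPM in SFL and 11.4 to 24.1 TPM in CFL. The list was mixed: ttr and fetub were listed at 0 in all 8 libraries and hnf4a reached at most 0.31 TPM, while rbp4 stood at 226 to 304 TPM in SFL and at most 0.2 TPM in CFL, fgb at 34.3 to 43.8 and 1.73 to 6.42 TPM, and cps1 at 1.62 to 4.55 and 3.65 to 18.9 TPM. Leukocyte markers, whose cells are rich in several caspases, summed to 2.33 to 3.56 TPM in SFL and 2.09 to 3.62 TPM in CFL over 16 rows, with laptm5 and spi1b at most 0.06 TPM. Rows of this list went in opposite directions. coro1a stood at 0.16 to 0.42 TPM in SFL and 0.61 to 2.36 TPM in CFL, and lcp1 at 0.80 to 2.15 and 0.13 to 0.31 TPM. Other marker sums differed between the lines. Biliary markers, led by keratins, summed to 9155 to 11727 TPM in SFL and 895 to 1312 TPM in CFL over 9 rows, with epcam at most 0.09 TPM. Against the direction of that sum, sox9a stood at 0.96 to 2.08 TPM in SFL and 22.55 to 31.8 TPM in CFL. Fibroblast and stellate markers summed to 295 to 367 and 112 to 223 TPM over 9 rows, with acta2 at 94.1 to 103 TPM in SFL and at most 0.45 TPM in CFL. That list was mixed too: pdgfra was at most 0.25 TPM in SFL and 5.66 to 20.4 TPM in CFL. Likewise pdgfrb stood at 0.22 to 1.16 TPM in SFL and 2.62 to 10.55 TPM in CFL. Its highest row, col1a2, overlapped between the lines, at 142 to 181 and 96.7 to 184 TPM. Endothelial markers summed to 44.99 to 89.8 and 14.8 to 30.1 TPM over 6 rows, nearly all of it kdrl, with pecam1 and cdh5 at most 0.08 TPM. The part of these differences in the line comparison was not tested.

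**Figure D1:**
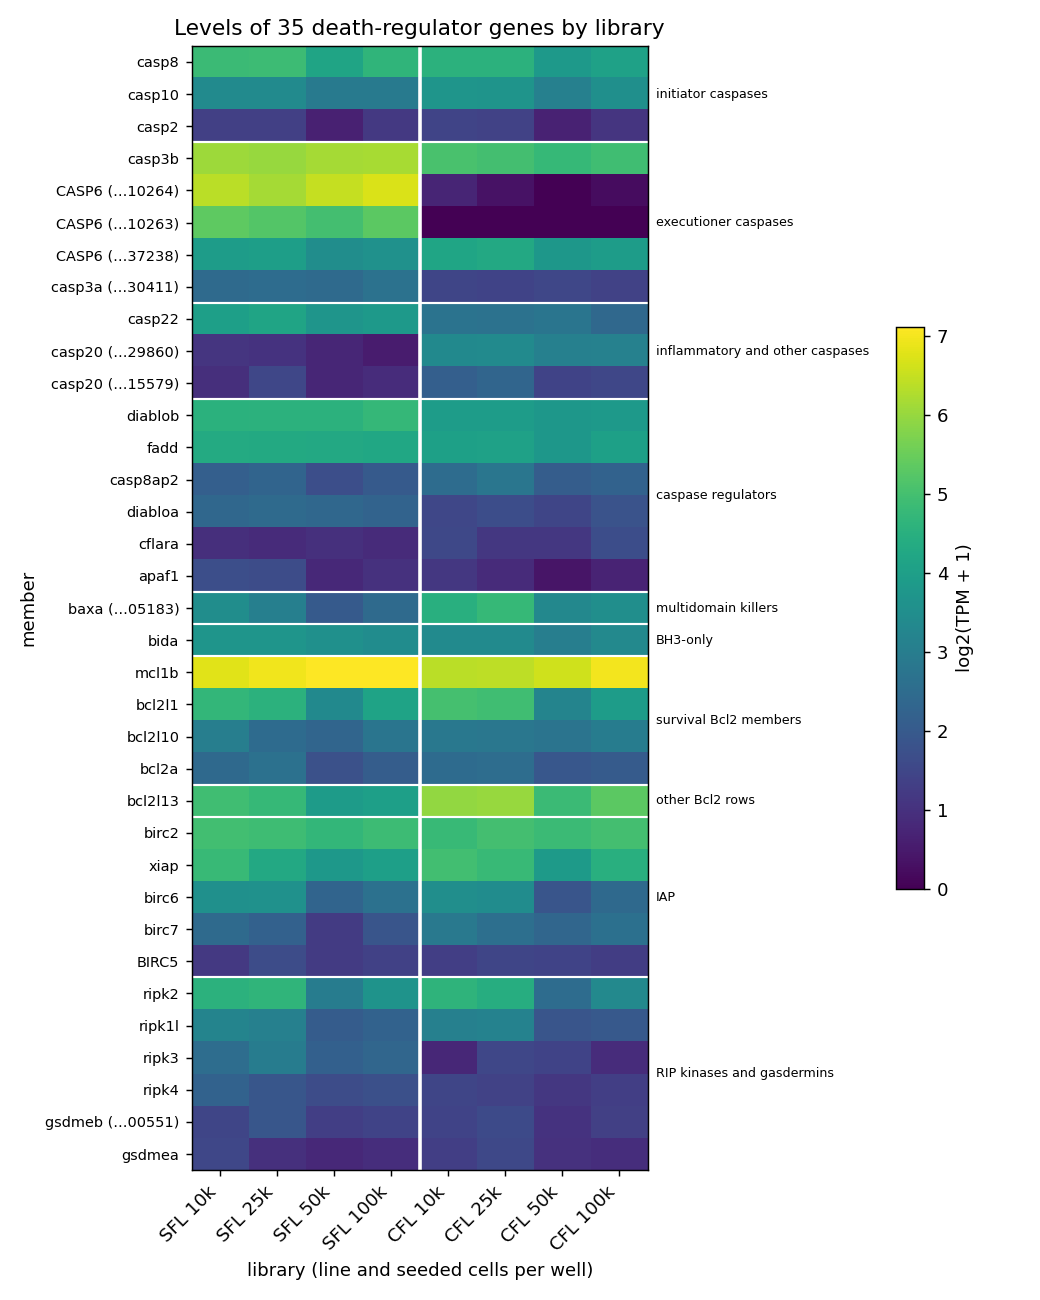
Levels of 35 tested genes, as log2(TPM + 1), by library (columns: line and seeding density), grouped by role. The 2 rows named CASP6 that are bright in SFL are dark in CFL, where one of them is listed at 0 throughout, and mcl1b has the highest level in every library.

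Summed over the 44 genes, the level was 552 to 669 TPM in SFL and 334 to 491 TPM in CFL. Without the pair of CASP6 rows that were near 0 in CFL the sums were 433 to 548 and 334 to 491 TPM. The lines then overlapped across densities, although SFL was higher at each density. The highest single level in all 8 libraries was that of mcl1b, a survival member of the Bcl2 family. The next places differed between the lines: in every SFL library they went to a CASP6 row, casp3b and another CASP6 row, and in every CFL library the second place went to bcl2l13. At 50000 cells in CFL, bcl2l13 and birc2 tied at 27.8 TPM.

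For the comparison of CFL with SFL, 19 of the 36 tested genes differed at a limma adjusted p under 0.05. By direction, 6 were higher and 13 lower in CFL, and all 19 kept the same sign at all 4 densities. Over all 13783 tested genes 58.9% differed, 27.6% higher and 31.3% lower, so the share among these genes (19 of 36) was close to that background. The median difference was -0.15 for the 36 genes and -0.04 for all tested genes on the log2(TPM + 1) scale, which understates changes of low genes. At least 2-fold differences numbered 3 higher and 7 lower, 10 in all, where 29.6% of all tested genes differed that much, 14.2% higher and 15.4% lower. After median-of-ratios scaling 22 genes differed, 10 higher and 12 lower, against 63.1% of all tested genes (31.7% higher, 31.4% lower). With libraries paired by density as a replicate block 25 differed, 10 higher and 15 lower, against 71.2% of all tested genes. Libraries of the lines did not overlap for 14 of the 36 genes, against 49.0% of all tested genes. In bulk RNA, fewer cells of a type and less RNA per cell cannot be told apart.

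**Figure D2:**
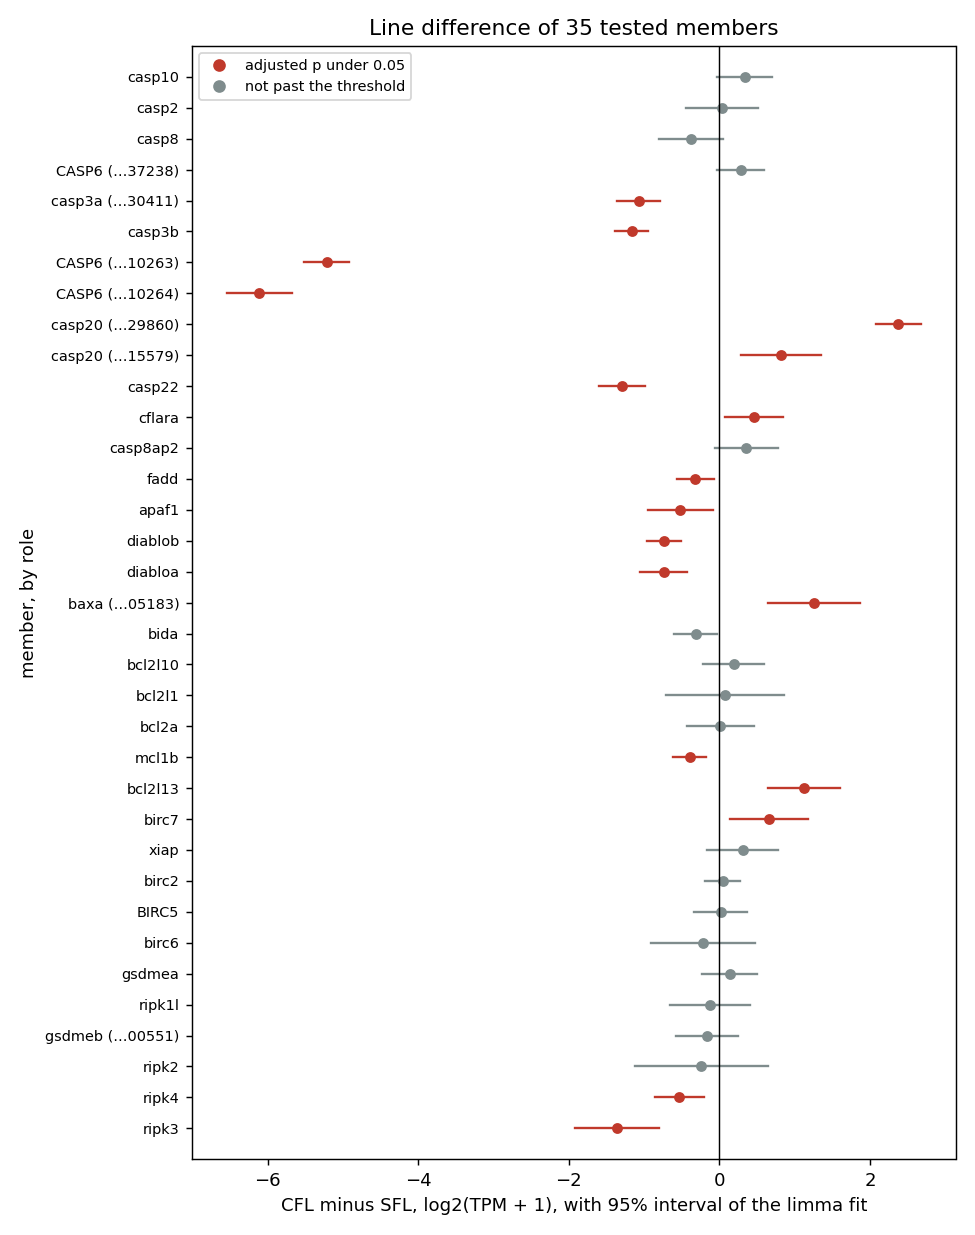
Difference between the lines (CFL minus SFL, log2(TPM + 1)) for 35 tested genes by role, with the 95% interval of the limma fit. Red points passed an adjusted p of 0.05, and 4 of the 5 executioner caspase rows drawn lie to the left of 0 in red.

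Of 5 executioner caspase rows described here, 4 were lower in CFL, each by at least 2-fold and with no overlap of the lines, and 1 did not pass. Of all tested genes 31.3% were lower, 15.4% were lower by at least 2-fold, and 49.0% had no overlap in either direction.

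Caspase 6 cuts nuclear lamins, among other targets, and 3 rows carry its name. The row CASP6 ENSAMXG00000010264 stood at 81.8, 69.9, 89.0 and 103 TPM in SFL at 10000, 25000, 50000 and 100000 cells. In CFL the same row stood at 0.65, 0.26, 0 and 0.17 TPM. Its log2 difference was -6.11 (SE 0.19, limma adjusted p = 8.04e-08), and every SFL library lay far above every CFL library. With CFL near 0 this value depends on the pseudocount, and it was -8.19 with a pseudocount of 0.1. The row CASP6 ENSAMXG00000010263 stood at 40.1, 35.8, 30.7 and 38.7 TPM in SFL and was listed at 0 in all 4 CFL libraries (limma adjusted p = 2.82e-08), so no fold is given. The third row, CASP6 ENSAMXG00000037238, stood at 14.4, 14.8, 10.2 and 11.1 TPM in SFL and at 17.01, 18.5, 12.6 and 14.2 TPM in CFL. CFL was a little higher at each density, but the groups overlapped and the difference of 0.28 did not pass (limma adjusted p = 0.104). It passed with libraries paired by density (adjusted p = 0.0128) and after median-of-ratios scaling (0.0107). RSEM, which the submitters' processing notes name, divides reads that fit several transcripts, and how alike these rows are in sequence was not analysed here. Added together, the 3 rows gave 135 ± 13.7 TPM for SFL and 15.8 ± 2.87 TPM for CFL (SD, n = 4). On the log2(TPM + 1) scale that sum differed by -3.02 (SE 0.14, limma adjusted p = 5.73e-07). Within SFL, ENSAMXG00000010264 held 66.1% to 74.4% of the TPM of the pair that was near 0 in CFL.

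Caspase 3 is a main executioner of apoptosis in vertebrates. For casp3b (ENSAMXG00000034083), SFL libraries stood at 65.7, 63.4, 69.9 and 71.3 TPM and CFL libraries at 32.5, 30.4, 26.4 and 29.4 TPM in order of density. The lines did not overlap, and the log2 difference was -1.16 (SE 0.10, limma adjusted p = 1.51e-05). The other zebrafish-type copy, casp3a (ENSAMXG00000030411), was much less abundant, at 4.49, 4.71, 4.50 and 5.47 TPM in SFL and 1.79, 1.71, 1.86 and 1.66 TPM in CFL. Its difference of -1.07 (SE 0.12, limma adjusted p = 0.000118) was close to that of casp3b. A second row of that name, casp3a ENSAMXG00000034038, ranged from 0 to 1.32 TPM and was not tested.

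Of the 3 tested initiator caspases, 0 passed in the limma comparison of the lines, and the lines overlapped in all 3. The share of all tested genes that differed was 58.9%. No row named casp9 was listed, so the initiator that acts with Apaf1 was not followed. casp8 (ENSAMXG00000015634), the initiator at death receptors, ranged from 16.9 to 28.4 TPM in SFL and 13.1 to 22.8 TPM in CFL, with a difference of -0.38 (limma adjusted p = 0.113). casp10 (ENSAMXG00000007768), a relative of caspase 8, ranged from 6.58 to 9.66 and from 7.48 to 12.1 TPM, with a difference of 0.34 (adjusted p = 0.101). Both passed with density as a replicate block, casp8 lower in CFL (adjusted p = 0.00517) and casp10 higher (0.0235). casp2 (ENSAMXG00000019043), the most conserved caspase in animals, was low in every library, between 0.57 and 1.77 TPM.

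Caspases with fish names moved in both directions. casp22 (ENSAMXG00000014588) stood at 15.2, 16.9, 12.2 and 13.5 TPM in SFL and 5.59, 5.42, 5.78 and 4.31 TPM in CFL. It was lower in CFL with no overlap (log2 difference -1.29, SE 0.13, limma adjusted p = 5.08e-05). casp20 ENSAMXG00000029860 went the other way, from 1.16, 1.06, 0.71 and 0.46 TPM in SFL to 9.30, 9.49, 7.51 and 7.76 TPM in CFL. Its difference of 2.38 (SE 0.13, limma adjusted p = 1.46e-06) was the largest rise among the 36 genes, and it was 3.25 with a pseudocount of 0.1. The other row of that name, casp20 ENSAMXG00000015579, was also higher in CFL, by 0.82 (adjusted p = 0.0143), or 1.25 with that pseudocount. Its CFL values of 1.71 to 4.03 TPM overlapped the SFL values of 0.70 to 1.87 TPM, and without SFL at 10000 cells it no longer passed (adjusted p = 0.0519). The summed level of both rows differed by 2.08. casp23 (ENSAMXG00000010996) was listed at 0 in all 4 SFL libraries and at 0.08 to 0.27 TPM in CFL, below the limit for testing.

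**Figure D3:**
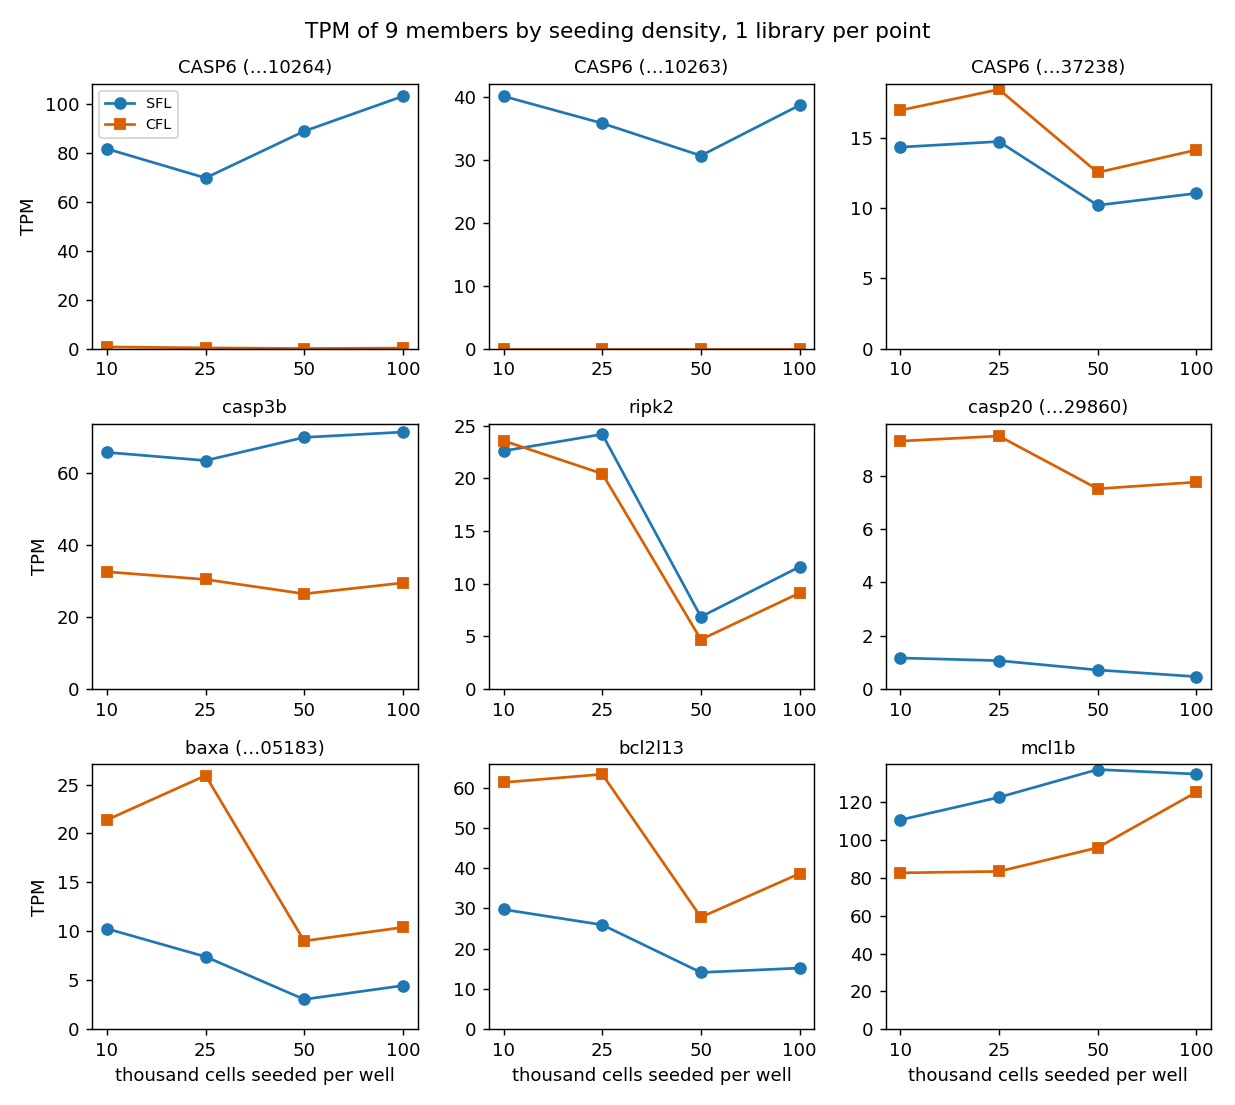
TPM of 9 genes against seeding density per well, 1 library per point (blue circles SFL, orange squares CFL), each vertical axis from 0. SFL lies above CFL for 2 of the 3 CASP6 rows and for casp3b, and below it for casp20, baxa and bcl2l13, while ripk2, baxa and bcl2l13 are lower at 50000 and 100000 cells in both lines.

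Of 6 tested regulators that bind or switch caspases, 4 were lower in CFL, 1 was higher and 1 did not pass, where 31.3% of all tested genes were lower and 27.6% higher. After median-of-ratios scaling 3 were lower and 2 higher. Both genes for Diablo were lower, diablob (ENSAMXG00000041613) from 23.4 ± 1.64 to 13.6 ± 0.74 TPM and diabloa (ENSAMXG00000030580) from 4.16 ± 0.29 to 2.09 ± 0.34 TPM (SD, n = 4). Their differences of -0.74 each had limma adjusted p of 0.000307 and 0.00169, with no overlap of the lines. fadd (ENSAMXG00000007390), the death receptor adaptor, was at 18.7 ± 0.74 and 14.8 ± 1.54 TPM, a difference of -0.32 (adjusted p = 0.031) that missed the threshold after median-of-ratios scaling (0.0532) and quantile normalization (0.127). cflara (ENSAMXG00000011573), which encodes the caspase 8 inhibitor c-Flip, was higher, at 0.90 ± 0.083 and 1.64 ± 0.50 TPM (difference 0.46, adjusted p = 0.0426, and 0.0841 after quantile normalization). apaf1 (ENSAMXG00000015838), the apoptosome scaffold, stood at 2.29, 2.14, 0.75 and 1.02 TPM in SFL and 1.21, 0.82, 0.32 and 0.64 TPM in CFL. It was lower in CFL at each density (difference -0.52, SE 0.19, adjusted p = 0.042), although the lines overlapped. These 3 calls changed with the libraries included, and with a pseudocount of 0.1 the differences of cflara and apaf1 were 0.76 and -0.94. That of fadd held without CFL at 25000 or 100000 cells and was lost without any of the other 6 libraries (adjusted p 0.0605 to 0.0741). That of cflara held without CFL at 25000 or 50000 cells and was lost without any other (0.0589 to 0.142), and that of apaf1 held without SFL at 50000 or CFL at 100000 cells and was lost without any other (0.0812 to 0.105). casp8ap2 (ENSAMXG00000014316), a nuclear protein needed for histone RNA processing in mammals, did not pass (0.36, adjusted p = 0.124) and did with the replicate block (0.0212). cflarb was listed at 0 in 6 libraries, all 4 SFL libraries among them.

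Within the Bcl2 family, baxa and bcl2l13 were higher in CFL and mcl1b was lower, and the other 4 tested genes did not pass. The shares over all tested genes were 27.6% higher and 31.3% lower. baxa ENSAMXG00000005183 stood at 10.3, 7.41, 3.05 and 4.46 TPM in SFL and 21.4, 25.9, 9.02 and 10.4 TPM in CFL. Ranges overlapped across densities, yet CFL was higher at every density, and the difference was 1.26 (SE 0.26, limma adjusted p = 0.00349). A further row named baxa (ENSAMXG00000037918) never passed 0.15 TPM. bcl2l13 (ENSAMXG00000000470), known in mammals as a mitophagy receptor on the outer mitochondrial membrane, stood at 29.7, 25.9, 14.1 and 15.2 TPM in SFL and 61.3, 63.3, 27.8 and 38.6 TPM in CFL. It too was higher at each density, by 1.12 (SE 0.21, limma adjusted p = 0.00176). bida (ENSAMXG00000000471), the gene for the BH3-only protein Bid, was at 11.3 ± 1.04 and 8.88 ± 1.15 TPM (SD, n = 4). The lines did not overlap, but the difference of -0.32 had an adjusted p of 0.0543, or 0.0239 with the replicate block.

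Among survival genes, 1 of 4 tested was lower in CFL and 3 did not pass, where 31.3% of all tested genes were lower. mcl1b (ENSAMXG00000044037) stood at 111, 123, 137 and 135 TPM in SFL and 82.6, 83.4, 95.9 and 125 TPM in CFL. SFL was higher at each density (difference -0.40, SE 0.09, limma adjusted p = 0.00636), but the call was lost after median-of-ratios scaling (0.0603) and quantile normalization (0.193). bcl2l1 (ENSAMXG00000031499), the gene for Bcl-xL, stood at 24.9, 22.8, 9.33 and 16.6 TPM in SFL and 31.1, 29.5, 8.24 and 14.3 TPM in CFL. Its difference of 0.075 had a 95% interval from -0.71 to 0.86, and CFL was higher only at the smaller densities. bcl2a (ENSAMXG00000030527), the Bcl2 gene itself, had 4.44, 5.30, 2.37 and 3.26 TPM in SFL and 4.59, 4.87, 2.79 and 3.11 TPM in CFL. The interval of its difference ran from -0.43 to 0.46. bcl2l10 (ENSAMXG00000016292), another survival relative, stayed between 4.01 and 7.25 TPM in all libraries. The row named BCL2 was at most 1.16 TPM, the BH3-only gene bik at most 0.06 TPM, and bcl2l16 was listed at 0 in all 8 libraries.

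Of 5 tested IAP genes, 1 was higher in CFL and 4 did not pass, where 27.6% of all tested genes were higher. birc2 (ENSAMXG00000043147), which encodes the ubiquitin ligase cIAP1, stood at 29.9, 28.8, 25.0 and 28.6 TPM in SFL and 26.8, 30.6, 27.8 and 30.7 TPM in CFL. The interval of its difference, from -0.19 to 0.28, excludes a 2-fold change. xiap (ENSAMXG00000005650), the direct inhibitor of active caspases, stood at 26.8, 18.5, 12.9 and 15.2 TPM in SFL and 30.3, 26.9, 13.6 and 21.6 TPM in CFL. CFL was higher at each density without passing (0.31, limma adjusted p = 0.226), and passed in the paired fit (0.0286) and after median-of-ratios scaling (0.0437). birc7 (ENSAMXG00000017607), known as livin in mammals, was called higher, at 3.05 ± 1.36 and 5.17 ± 0.88 TPM (0.66, adjusted p = 0.0328). That call was lost without CFL at 10000 (0.0723), at 25000 (0.0557) or at 100000 cells (0.106), and with no filter on low genes (0.0567). BIRC5 ENSAMXG00000030126, named for survivin, which acts in mitosis, ranged from 1.28 to 2.17 TPM in both lines together.

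Of 6 tested RIP kinases and gasdermins, 2 were lower in CFL and 4 did not pass. Over all tested genes 31.3% were lower and 27.6% higher. ripk3 (ENSAMXG00000030563), the kinase of necroptosis in mammals, stood at 4.87, 6.86, 3.55 and 4.05 TPM in SFL and 0.72, 1.86, 1.67 and 0.86 TPM in CFL. The lines did not overlap, and the difference was -1.36 (SE 0.24, limma adjusted p = 0.00142). ripk4 (ENSAMXG00000016575), a kinase of epidermal differentiation in mammals, was lower too, at 2.71 ± 0.71 and 1.55 ± 0.25 TPM (-0.53, adjusted p = 0.011). Gasdermin E forms membrane pores after caspase 3 cuts it in mammals. Both tested rows were low, gsdmea between 0.75 and 1.91 TPM and gsdmeb ENSAMXG00000000551 between 1.07 and 2.74 TPM. A second gsdmeb row, ENSAMXG00000030368, was listed at 0 in all 4 SFL libraries and reached 0.61 TPM in CFL.

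Seeding size was compared as 50000 and 100000 cells (large) against 10000 and 25000 cells (small), with line as the other term. The split was chosen from these data, in which libraries at 10000 and 25000 cells resembled each other, as did those at 50000 and 100000. The p-values for size do not allow for that choice. As deposited, 19 of the 36 genes were lower and 1 was higher in large spheroids, a total of 20, where 48.0% of all tested genes differed, 44.8% lower and 3.25% higher. The median over all tested genes was itself -0.30 in the deposited values and 0.04 once these were scaled by median of ratios, and 12 of the 36 differences changed sign with that scaling. Scaled in this way, 14 of the 36 differed, 8 lower and 6 higher, against 44.4% of all tested genes (21.1% lower, 23.3% higher). Falls of at least 2-fold numbered 5 as deposited and 1 when scaled, against 10.0% and 2.8% of all tested genes. In all, 9 genes were called in the same direction under both. Among them ripk2, birc6, bcl2l1, baxa, ripk1l, bcl2l13 and apaf1 fell and mcl1b rose. The shares of all tested genes called under both, or changing sign with the scaling, are not given here. These counts are therefore not set against a background. For 22 of the 36 genes both large libraries lay below both small ones in both lines, which held for 47.1% of all tested genes. Against log2(density) as a slope, 0 genes passed in limma, over all genes or among these, although 11 of the 36 and 36.5% of all tested genes had an unadjusted p under 0.05. An F test with density as a factor called 11 of the 36, and 35.9% of all tested genes.

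**Figure D4:**
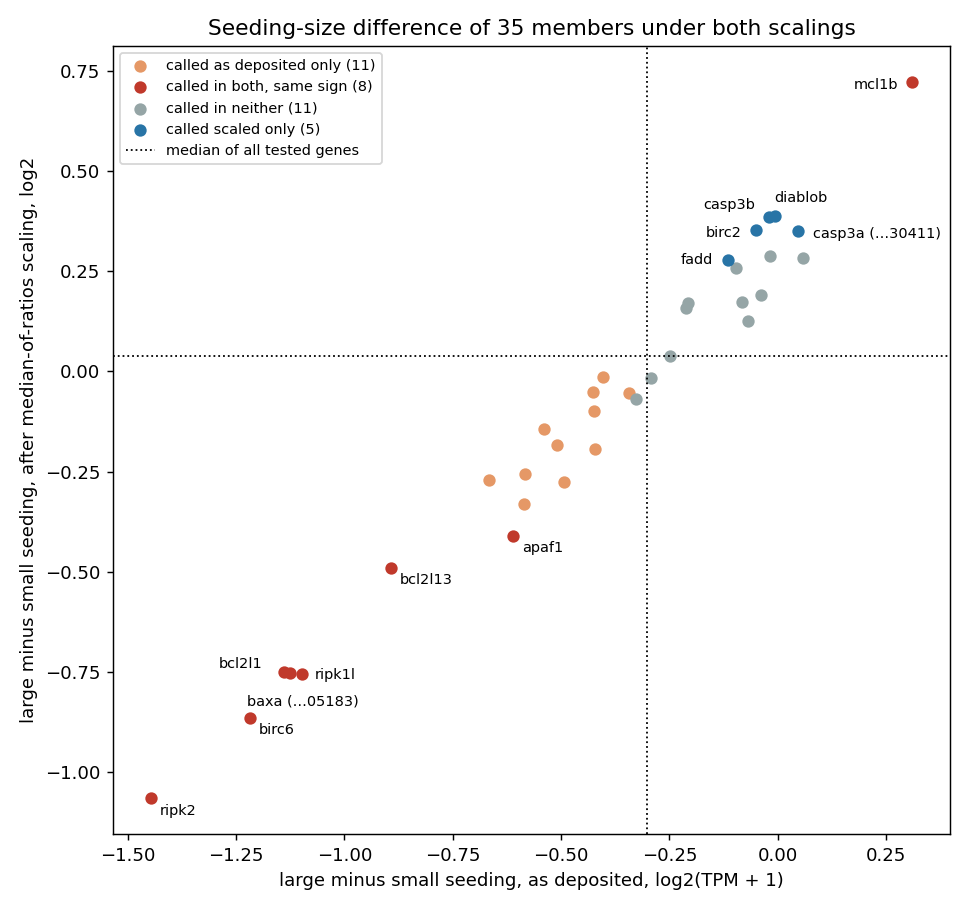
Difference between large and small seeding for 35 of the genes, in the deposited TPM (horizontal, log2(TPM + 1)) and scaled by median of ratios (vertical, same scale), with dotted lines at the medians of all tested genes (-0.30 and 0.04). The 8 genes in red passed with the same sign under both, ripk2 lowest and mcl1b highest.

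The largest fall among the 36 genes was in a kinase that relays inflammatory signals. ripk2 (ENSAMXG00000019153), the kinase below NOD receptors, stood at 22.6, 24.2, 6.85 and 11.6 TPM in SFL and 23.6, 20.5, 4.69 and 9.11 TPM in CFL with rising density. Both lines had their lowest value at 50000 cells, and the difference between large and small was -1.45 (SE 0.20, limma adjusted p = 0.000812). After median-of-ratios scaling it was -1.07 (adjusted p = 0.00177). ripk1l (ENSAMXG00000016394), the RIPK1 homolog, stood at 8.30, 7.54, 3.23 and 3.73 TPM in SFL and 7.56, 7.94, 2.67 and 2.95 TPM in CFL. In each line both large libraries lay below both small ones, and the difference of -1.10 (SE 0.11, adjusted p = 0.000488) became -0.75 after scaling (adjusted p = 0.00104).

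birc6 (ENSAMXG00000010869), a very large ubiquitin-conjugating IAP, fell from 10.9 and 11.0 to 3.92 and 5.30 TPM in SFL and from 10.3 and 9.97 to 2.64 and 4.35 TPM in CFL. Its difference was -1.22 (SE 0.15, limma adjusted p = 0.000536), and -0.86 after scaling (adjusted p = 0.0012). xiap fell by 0.67 as deposited (adjusted p = 0.00832), but its scaled difference of -0.27 did not pass (0.11). For birc2 the sign itself depended on the scaling, at -0.049 as deposited and 0.35 after scaling (adjusted p = 0.00716).

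In the Bcl2 family, baxa, bcl2l13 and bcl2l1 were lower and mcl1b higher in large spheroids when both lines were fitted together. Within SFL alone, bcl2l1 (-0.88, limma adjusted p = 0.0554) and mcl1b (0.22, 0.239) did not pass, while all of these genes passed within CFL. The CFL call of mcl1b was near the threshold (0.40, limma adjusted p = 0.0472). For neither gene was the change shown to differ between the lines (limma interaction adjusted p = 0.849 for bcl2l1 and 0.899 for mcl1b). The difference of baxa ENSAMXG00000005183 was -1.12 (SE 0.14, limma adjusted p = 0.000599), or -0.75 after scaling (adjusted p = 0.00177). That of bcl2l13 was -0.89 (SE 0.11, adjusted p = 0.00054), or -0.49 after scaling (0.00186). bcl2l1 differed by -1.14 (SE 0.21, adjusted p = 0.00233), or by -0.75 after scaling (0.00753), and its lowest libraries were those of 50000 cells. mcl1b was the only gene of the 36 with both large libraries above both small ones in each line, which held for 4.48% of all tested genes. Its difference was 0.31 as deposited (SE 0.09, adjusted p = 0.0227) and 0.72 after scaling (0.000992), although the deposited call was lost without SFL at 10000 (0.0562), CFL at 10000 (0.0647) or CFL at 25000 cells (0.0652). bcl2a fell by 0.58 as deposited (adjusted p = 0.00414) and differed by -0.26 after scaling without passing (0.0874).

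Of the executioners, CASP6 ENSAMXG00000037238 was called as deposited only, at -0.40 (adjusted p = 0.00462) against -0.014 after scaling. casp3b moved with the scaling, from -0.020 to 0.39 (adjusted p = 0.00491), and casp3a ENSAMXG00000030411 from 0.048 to 0.35 (0.0289). All 3 initiator caspases were called lower as deposited, casp8 by 0.54, casp10 by 0.43 and casp2 by 0.49, and after scaling 0 passed in limma (adjusted p 0.162 to 0.686). Over all tested genes 44.8% were lower as deposited and 21.1% after scaling. The call of casp2 was lost without either SFL or CFL at 10000, 25000 or 50000 cells (0.058 to 0.0858). apaf1 was lower by 0.61 (adjusted p = 0.00923), with a scaled difference of -0.41 (0.0396) that was -0.22 after quantile normalization (0.222).

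Of the remaining genes called lower as deposited, 0 passed in limma after scaling: both casp20 rows, casp8ap2, birc7 and gsdmea, with scaled differences of -0.05 to -0.33. casp20 ENSAMXG00000015579 fell by 0.58 and lost its call without CFL at 25000 cells (adjusted p = 0.0552). casp8ap2 fell by 0.42 and lost it without SFL or CFL at 25000 or 50000 cells (0.0537 to 0.0775). The falls of casp20 ENSAMXG00000029860 by 0.34, birc7 by 0.51 and gsdmea by 0.42 were lost without most single libraries, 6, 5 and 7 of the 8 (up to 0.0757, 0.136 and 0.125). After scaling alone, birc2, diablob, fadd, casp3b and casp3a ENSAMXG00000030411 were called higher in large spheroids. diablob stood at 22.3, 22.8, 22.7 and 25.8 TPM in SFL with rising density and at 14.3, 14.1, 12.7 and 13.5 TPM in CFL.

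Whether the change with seeding size differed between the lines was tested as an interaction. In limma, 0 of the 36 genes passed, with a smallest adjusted p of 0.48, and 1 had an unadjusted p under 0.05; over all tested genes 0.0% passed and 8.21% had an unadjusted p under 0.05. Within SFL 9 of the 36 genes were called for size (27.0% of all tested genes) and within CFL 12 (36.5%), and these counts are not shown to differ. The smallest unadjusted p values belonged to CASP6 ENSAMXG00000010264 (interaction -0.75, unadjusted p = 0.0205) and casp3b (-0.29, unadjusted p = 0.0785). In the deposited values both were higher at large than at small seeding in SFL and lower in CFL, with values given above. After median-of-ratios scaling casp3b was higher at large seeding in both lines.

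Genes up- and downstream of these regulators were counted from lists that hold none of the 44. Among death receptors, ligands and adaptors, 7 of 10 tested rows were higher in CFL and 0 lower, beside 27.6% and 31.3% of all tested genes, with a median difference of 0.92 against -0.04 for all tested genes. tnfrsf1a, the receptor for TNF, averaged 25.2 ± 5.29 TPM over SFL and 77.4 ± 8.96 TPM over CFL libraries (limma adjusted p = 3.38e-05). tnfrsf21, also called death receptor 6, was at 4.78 ± 1.24 and 15.7 ± 3.34 TPM. The TRAIL-like ligand tnfsf10l3 (8.74 ± 3.01 and 20.6 ± 7.85 TPM) and the adaptor traf2b (8.99 ± 4.27 and 24.0 ± 14.5 TPM) were higher as well, both with overlap of the lines across densities. The other copy of that adaptor, traf2a, was at 4.088 ± 1.695 and 3.045 ± 1.946 TPM. Its difference of -0.39 did not pass (limma adjusted p = 0.286). Mitochondrial death factors and further BH3-only genes were divided, with 4 of 20 tested rows higher and 8 lower against that same background. cycsb, which encodes cytochrome c, averaged 84.3 ± 7.42 TPM over SFL and 488 ± 26.2 TPM over CFL libraries (log2 difference 2.52, limma adjusted p = 1.04e-07). endog, a mitochondrial nuclease, was at 23.6 ± 5.06 and 9.45 ± 1.16 TPM. The BH3-only gene badb was at 21.9 ± 2.17 and 10.3 ± 1.23 TPM, and the mitophagy gene bnip3lb at 24.4 ± 8.13 and 7.61 ± 2.49 TPM. The other copies of badb and bnip3lb went the other way. bada stood at 4.66 to 10.34 TPM in SFL and 9.19 to 11.73 TPM in CFL, with overlap. Its difference of 0.55 was close to the threshold (limma adjusted p = 0.0497). bnip3la stood at 8.6 to 10.28 TPM in SFL and 17.03 to 22.55 TPM in CFL. Its difference was 0.97 (limma adjusted p = 6.74e-05). In the list of inflammasome and survival signalling, 7 of 17 were higher and 2 lower, again against that same background. nfkbiab, an inhibitor of NF-kB, was higher, at 8.15 ± 0.31 and 19.6 ± 1.67 TPM. tab2, an adaptor of the kinase Tak1, was lower, at 53.9 ± 4.20 and 21.1 ± 2.43 TPM.

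For seeding size, 6 of 10, 7 of 20 and 9 of 17 rows of these lists were lower and 0 higher in large spheroids as deposited, where 44.8% of all tested genes were lower and 3.25% higher. After median-of-ratios scaling (21.1% of all tested genes lower, 23.3% higher), 4 were lower and 1 higher in the first, 2 lower and 7 higher in the second, and 5 lower and 5 higher in the third.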

How the data were processed

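Polyadenylated RNA was sequenced from stranded libraries with 75-base single reads, per the labels. The authors deposited 1 table of TPM per gene and library, each column summing to 1000000 within rounding; the submitters' processing notes name STAR 2.7.3a and RSEM 1.3.0. Genome build, annotation and strand setting are not given in the sources used here. TPM keeps no depth, so no counting error is given, and a 0 is described as listed at 0. All 8 columns were mapped by sample title.

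Genes with a mean of at least 1 TPM (13783) entered linear models on log2(TPM + 1) in limma 3.58.1 (R 4.3.3) with a mean-variance trend, and p-values were adjusted by Benjamini-Hochberg over all of them (threshold 0.05). Line differences came from line + log2(density), size differences from line + size, and interactions from line × size, always over all 8 libraries. Fits were tested on simulated data with independent noise and added differences. Those data lacked the shift with seeding that libraries share here, so they do not check the p-values under it. Densities treated as repeats here are not replicates, and nothing says that libraries came from separate cultures, so p-values measure the spread between these libraries.

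Libraries of the same density were paired in a further fit of the line comparison (replicate block), since their deviations from the line means correlated with r of 0.51, 0.49, 0.64 and 0.31 at the 4 densities. Libraries of 10000 and 25000 cells in different lines correlated as highly, at 0.52 and 0.48. Other alternatives were median-of-ratios scaling, quantile normalization, a pseudocount of 0.1, no filter, a filter at 5 TPM and each library left out; summing rows of 1 name was added after the data were seen.

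Members, lists and the split by size were chosen with earlier results of these data known. Values in all libraries are given for members at least 2-fold different between lines, the 5 most abundant, the 10 with the smallest p among those called for size at 1.5-fold or more, and the 2 with the smallest interaction p. They are also given for CASP6 ENSAMXG00000037238 and diablob, which met none of these limits. Other list genes are named where they differ at least 2-fold, at most 4 per list by mean TPM. bada, bnip3la and traf2a were added as the other copies of badb, bnip3lb and traf2b. Of the tested members, 1 is counted in totals and not reported here. No sequences were analysed here.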

Additional observations from a re-analysis of the deposited data

Results flagged for a closer look

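In 72 sets of 4 libraries (36 genes in each line), 2 had a library standing apart from the other 3 by more than Dixon's 95% critical value for 4 values; chance flags about 1 set in 20. diablob stood at 25.8 TPM in SFL at 100000 cells against 22.3 to 22.8 TPM in the other SFL libraries. In the CFL library of 50000 cells fadd had 12.5 TPM, and in the other CFL libraries 15.5 to 15.8 TPM.

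For 2 genes both large libraries moved one way from both small ones in SFL and the other way in CFL. As deposited, casp3b differed between large and small seeding by 0.13 in SFL and -0.17 in CFL, an interaction of -0.29 (the fitted value -0.295) that did not pass in limma (adjusted p = 0.668). After median-of-ratios scaling casp3b was higher at large seeding in both lines, by 0.52 in SFL and 0.26 in CFL. CASP6 ENSAMXG00000010264 differed by 0.34 in SFL and -0.41 in CFL, an interaction of -0.75 (limma adjusted p = 0.48), where the CFL change lies between 0.65 and 0 TPM. Its scaled differences kept opposite signs, at 0.73 in SFL and -0.35 in CFL.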

How the results depend on the processing

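Of the 19 line calls, 13 held in every alternative in which the gene was tested. Of these, casp20 ENSAMXG00000029860, casp3a ENSAMXG00000030411, diabloa, ripk3 and ripk4 lie below 5 TPM and were not tested under a filter at that level. Of the 20 size calls, 7 held in every alternative but the log2(density) slope. A filter at 5 TPM, which left 21 of the 36 genes, gave 10 line calls (2 higher, 8 lower) and 12 size calls (11 lower). Calls higher in CFL rose from 6 to 10 with median-of-ratios scaling and with the replicate block (libraries paired by density). For size, the slope called 0 in limma (0 lower, 0 higher; 11 unadjusted) and the F test on density 11; calls were 8 lower and 6 higher after median-of-ratios scaling, and 7 lower and 9 higher after quantile normalization. The cause was not tested. No interaction passed under any alternative.

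Leaving out 1 library gave 15 to 19 line calls (4 to 8 higher, 11 to 14 lower) and 14 to 19 size calls (14 to 18 lower, 0 to 1 higher). Shares of all tested genes are not given here for these fits, quantile normalization or the filter at 5 TPM. Counts under those settings are therefore not set against a background.

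Size differences reversed under median-of-ratios and quantile scaling, in that order, for fadd (0.28, 0.29), CASP6 ENSAMXG00000010263 (0.12, 0.091), CASP6 ENSAMXG00000010264 (0.19, 0.13), casp22 (0.16, 0.24), ripk3 (0.038, 0.19), casp3b (0.39, 0.29), diablob (0.39, 0.39) and birc2 (0.35, 0.30). With median-of-ratios scaling they also changed sign, without a call in either, for bida (0.17), bcl2l10 (0.26), diabloa (0.29) and BIRC5 (0.17), 12 genes in all. Under quantile scaling alone they reversed for casp10 (0.011), casp8ap2 (0.063), casp20 ENSAMXG00000029860 (0.053) and CASP6 ENSAMXG00000037238 (0.01), and the line difference of bcl2a became -0.016. The slope was above 0 for diablob (0.0093), birc2 (0.0031), diabloa (0.016) and BIRC5 (0.0056), whose size differences were below 0. With rows of 1 name summed, casp3a differed by -0.079 between sizes.

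Without 1 library, line differences that did not pass ranged across 0 for birc6 (-0.389 to 0.030), ripk1l (-0.289 to 0.019), ripk2 (-0.489 to 0.089), bcl2a (-0.119 to 0.132), bcl2l1 (-0.138 to 0.371) and birc2 (-0.011 to 0.096). Size differences did so for CASP6 ENSAMXG00000010263 (-0.119 to 0.012), CASP6 ENSAMXG00000010264 (-0.158 to 0.116), casp3a (-0.0076 to 0.086), casp3b (-0.060 to 0.040), diablob (-0.064 to 0.031) and birc2 (-0.102 to 0.0042).

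Depth is unknown, so rows under 1 TPM carry an error that cannot be stated. The replicate block called 25 genes for line, and it changed no call among the 19.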
